A study of Bos taurus with 7 samples.

Results

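The 78 genes that encode mitochondrial ribosomal proteins were followed in whole bovine follicles at 2 early stages of growth. Members were taken by symbol, as every gene named *MRPL* or *MRPS* and a number, and all 78 such genes of the RefSeq gene table were matched to transcripts in the data, out of 23704 matched genes in all. Symbols starting with *MRPL* numbered 49 and those starting with *MRPS* 29. The series held 7 RNA sequencing libraries. In the 4 libraries of primary follicles (PF), a complete layer of cuboidal granulosa cells surrounded the oocyte, and in the 3 libraries of secondary follicles (SF) the granulosa cells formed several layers. Here PF1 to PF4 and SF1 to SF3 stand for the replicates as the labels number them. The follicles were freshly isolated by mechanical means from the ovarian cortex of young Holstein Friesian dairy cows, obtained at an abattoir, and both stages rested briefly in medium with insulin and FSH before RNA was taken. No agent or genotype set the stages apart. A library held RNA of many intact follicles, oocyte and granulosa cells included, and the sources used here do not say how the animals were spread over the pools. The study describes its pools as biological replicates. As the animals behind each pool are not given, the p-values below measure the spread between these libraries, which may be technical.

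Mitochondria carry their own ribosome, which translates the few respiratory chain subunits that are encoded in mitochondrial DNA. Its proteins are all encoded in the nucleus, made in the cytosol and imported. The large subunit forms peptide bonds and holds the exit tunnel for the new protein, which is inserted into the inner membrane, while the small subunit binds the messenger RNA and reads its codons. The oocyte is rich in mitochondria, and inherited defects of several of these genes are known to affect the ovary. The letter in a symbol does not always give the place of the protein. *MRPS30* and *MRPS18A* encode proteins of the large subunit, and *MRPS36* encodes a protein of the 2-oxoglutarate dehydrogenase complex. By place, the members were 51 genes of the large subunit, 26 of the small subunit and 1, *MRPS36*, of neither.

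Each library held 18788105 to 23764615 estimated counts. The lowest count of any member in any library was 42, so every member was measured throughout. PF4 stood apart, with stromal fibroblast markers that summed to 6193 TPM, against 427 to 621 TPM in the other PF libraries and 239 to 542 TPM in SF. TPM is the abundance of a transcript corrected for its length and scaled to a common total. The study did not use PF4. Its choice was followed here, and SF was compared with PF1 to PF3 by the Wald test of DESeq2. P-values were adjusted over all 15056 genes tested, and a call means an adjusted p below 0.05. Means ± SD are over n = 3 libraries, without PF4. Fold changes are given as log2 ± SE, negative where SF was lower. Oocyte markers moved with the stages. The 14 markers summed to 4563, 4549 and 2401 TPM in PF1 to PF3 and to 439 TPM in PF4. In the SF libraries they summed to 1723, 1278 and 219 TPM. Of the 14, 11 were called lower in SF and none higher, against 11.0% and 8.14% of all genes tested. Among those called, *NLRP5* overlapped between the stages. With PF4 kept, *BMP15*, *NOBOX*, *LHX8*, *SOHLH1* and *KIT* still passed (DESeq2 adjusted p = 1.2e-04 to 0.047). The calls of *GDF9*, *DDX4*, *DPPA3*, *FIGLA*, *NLRP5* and *OOEP* ended (0.16 to 0.55). The 12 granulosa markers summed to 810 to 1552 TPM in PF and 2195 to 2912 TPM in SF, and 7 rose and none fell. Of markers of other cells, 1 of 8 stromal, 2 of 5 smooth muscle, 0 of 5 theca, 0 of 5 endothelial and 0 of 5 immune genes rose in SF, and 1 of 5 immune genes fell. The theca markers summed to 164 to 248 TPM in PF1 to PF3 and 285 to 397 TPM in SF, with *CYP17A1* at 0 in all libraries but PF1. Endothelial markers summed to 32.7 to 44.6 TPM and 20.9 to 97.8 TPM, with *PECAM1* at 0 in all libraries but SF1. Immune markers summed to 42.3 to 94.1 TPM and 5.14 to 29.1 TPM, and smooth muscle markers to 72.3 to 152 TPM and 220.0 to 260.4 TPM. *CSF1R*, the immune gene that fell, held most of the immune sum in PF1 to PF3 (89.2, 62.0 and 31.5 TPM). Of the other immune genes, *LYZ* did not pass (0.92 ± 0.86, adjusted p by DESeq2 = 0.49). *POSTN*, *CYP17A1*, *CDH5*, *CD68* and *CD3E* had no adjusted p and count here as not called. In PF4 theca markers summed to 1167 TPM and smooth muscle markers to 1038 TPM. The part that these cell types had in the values of the mitochondrial ribosome was not tested. In such pools, fewer cells of a type and less RNA per cell cannot be told apart.

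Mitochondrial ribosomal protein genes were well expressed at both stages. In each library 77 or 78 of the 78 members reached 10 TPM, and the member of median level stood above 86.7% to 88.5% of the detected genes (those at 1 TPM or more) in PF1 to PF3 and above 78.0% to 87.0% in SF. By mean TPM over the 6 libraries compared, the most abundant genes of the large subunit were *MRPL20*, *MRPL36*, *MRPL37* and *MRPL23*, and those of the small subunit were *MRPS14*, *MRPS6*, *MRPS18C* and *MRPS16*. The level differed widely between members of the same particle. *MRPL20* reached 786 ± 207 TPM in PF, while *MRPL28*, the member with the lowest mean, stood at 13.3 ± 14.2 TPM in PF and 16.6 ± 7.36 TPM in SF. *MRPL28* was also among the most variable, with 7.26, 29.5 and 3.09 TPM in PF1 to PF3.

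The summed TPM of the members was lower in SF on average, by a similar factor in both subunits, with overlap between single libraries. The large subunit summed to 9280, 9604 and 5661 TPM in PF1 to PF3 and 5271 TPM in PF4. In SF it summed to 5982, 4540 and 3410 TPM. The small subunit summed to 4377, 4478 and 2676 TPM in PF1 to PF3 and 2317 TPM in PF4, and to 2800, 2277 and 1590 TPM in SF. In both subunits PF1 and PF2 lay above all other libraries and SF3 below them, while SF1 lay above PF3, so the stages overlapped. The means were 8182 ± 2189 TPM in PF and 4644 ± 1289 TPM in SF for the large subunit, a log2 ratio of -0.82, and 3844 ± 1012 TPM and 2222 ± 607 TPM for the small subunit, a log2 ratio of -0.79. All members together held 1.22 ± 0.320% of the TPM of a PF library and 0.698 ± 0.193% of an SF library. With counts divided by size factors, the log2 ratio was -0.68 for the large and -0.52 for the small subunit. On those counts SF1 lay below PF3 in the large subunit (74337 against 75410), so SF and PF1 to PF3 did not overlap. In the small subunit SF1 still lay above PF3 (33198 against 32634). Scores over the members were given no test. The library names carry a number that lies below 40 for PF1, PF2 and SF1 and above 40 for the others, which may mark series of preparation, although the labels do not state it. In both subunits all libraries numbered below 40 had higher sums than all those numbered above 40. Within numbers below 40 the log2 ratio of SF over PF was -0.66 for each subunit. Within those above 40, PF4 left out, it was -0.51 for the large and -0.47 for the small subunit. These ratios rest on SF1 alone for SF below 40 and on PF3 alone for PF above 40.

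**Figure D1:**
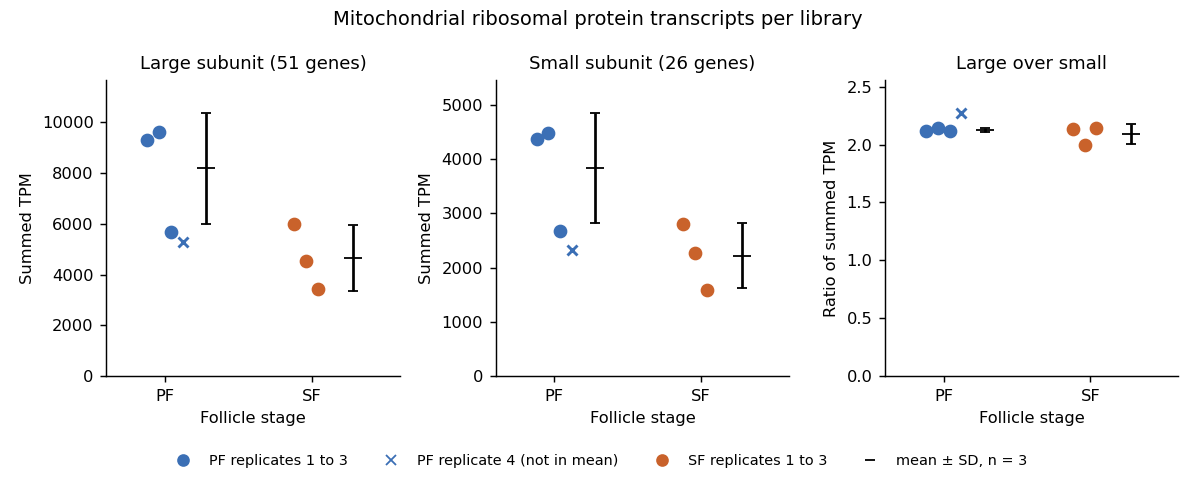
Summed TPM of the 51 large subunit and 26 small subunit genes in each library, and their ratio, with circles for the libraries compared, crosses for PF4, and bars for the mean ± SD (n = 3). PF1 and PF2 are highest in both subunits, SF1 lies just above PF3, and the ratio stays between 1.99 and 2.28 in all 7 libraries.

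On TPM the balance of the subunits changed little. The large subunit held 2.12, 2.14 and 2.12 times the summed TPM of the small subunit in PF1 to PF3, 2.28 times in PF4, and 2.14, 1.99 and 2.15 times in SF. SF2 was the lowest of all libraries, and the other SF libraries lay within the range of the 4 PF libraries. Most of this ratio follows from the number of genes, since per gene the mean TPM of the large subunit was 1.08 ± 0.0081 times that of the small subunit in PF and 1.07 ± 0.0433 times in SF. On the log2 scale, the ratio was 1.09 ± 0.01 in PF and 1.06 ± 0.06 in SF. With counts divided by size factors in place of TPM the difference of SF minus PF was -0.16, against -0.02 with TPM. On those counts the ratio of large to small was lower in each SF library than in any of PF1 to PF3. Neither difference was tested.

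More members fell than rose from PF to SF. DESeq2 called 17 of 78 members lower (21.8%, against 11.0% of all genes tested) and 1 higher (against 8.14%), and 60 did not pass. The fold change was below 0 for 61 members (78.2%, against 49.2% of all genes tested), with a median of -0.52 where the median of all genes was 0.02. In 29 members (37.2%) the TPM of all 3 SF libraries lay below those of PF1 to PF3, as in 18.5% of all genes tested, and in 1 member they lay above (14.3% of all genes tested). The shift was of moderate size. Members ranged from -1.97 to 0.81, while 10% of all genes tested lay below -2.01 and 10% above 1.46. All genes tested include genes of low level, such as *NR5A2* at a mean of 0.295 TPM (log2 fold of 7.97 ± 2.97). Genes of like level to the members were not set apart for this comparison. By subunit, 10 of 51 large subunit genes fell and 1 rose (median -0.54), and 7 of 26 small subunit genes fell and none rose (median -0.47). The difference between the subunits was not tested.

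**Figure D2:**
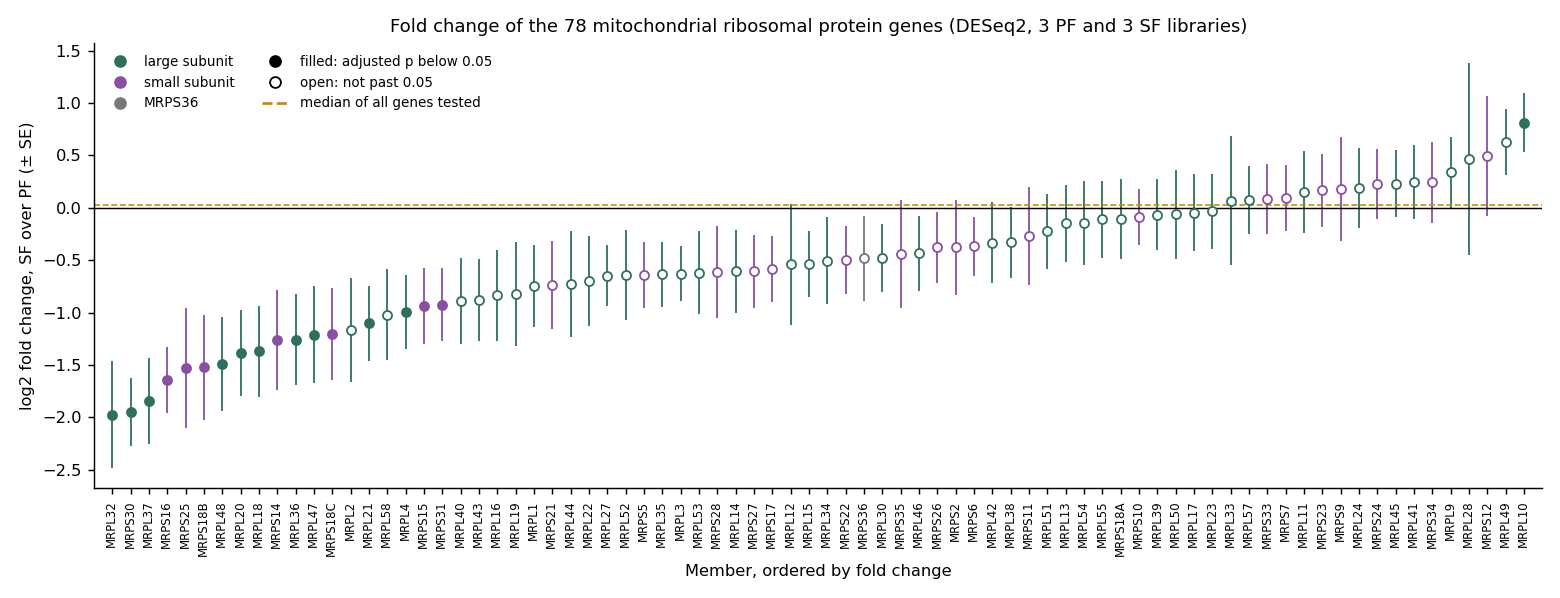
DESeq2 log2 fold change of SF over PF ± SE for each of the 78 members in rising order, coloured by subunit and filled where the adjusted p is below 0.05, with a dashed line at the median of all genes tested. The 17 members called lower lie toward the left, a few open points among them, and *MRPL10*, the member called higher, is the last on the right.

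These calls depended on the test and on the libraries. The quasi-likelihood test of edgeR called 0 members and 0 genes in all, with a smallest adjusted p of 0.0525 among the members. At an unadjusted p below 0.05 it had 23 members lower (against 13.5% of all genes tested) and 2 higher (against 13.4%). Limma on log2(TPM + 1) called 4 members lower, *MRPS30*, *MRPS16*, *MRPL37* and *MRPL32* (against 4.25% of all genes tested), and 0 higher (1.77%). On log2(TPM + 0.1) it called 0 members, where 0.0152% of all genes were lower. With PF4 kept, DESeq2 called 2 members lower, *MRPS30* and *MRPS16* (3.19% of all genes tested), and *MRPL10* higher (2.63%). The counts also moved with the library left out. Without PF1, 5 members were called lower (6.11% of all genes tested), without PF2 also 5 (6.27%), and without SF2 4 (8.76%), so that the members' shares then lay close to or below those of all genes. Without PF3, 20 members were called lower (12.5%), without SF1 23 (12.2%) and without SF3 11 (9.56%). *MRPL10* was called higher without PF3 (13.1%) and without SF2 (4.65%) but not without PF1 (6.60%), PF2 (6.17%), SF1 (6.98%) or SF3 (5.92%).

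Scaling mattered as well. TMM factors gave 10 members lower (9.66% of all genes tested) and 1 higher (8.91%), total counts 10 lower (11.2%) and 0 higher (4.28%), and library number as covariate 13 lower (8.48%) and 1 higher, *MRPL49* in place of *MRPL10* (7.93%). Scaling by total counts moved the median of all genes from 0.02 to -0.19 and the share of calls that were higher in SF from 42.6% to 27.6%. The median of the members stayed below that of all genes in each of the 17 alternative fits, by 0.38 to 0.68 on the log2 scale. Both TMM factors and total counts ended the calls of *MRPL4*, *MRPL47*, *MRPS14*, *MRPS18C*, *MRPS25*, *MRPS15* and *MRPS31* (DESeq2 adjusted p = 0.054 to 0.088), and the covariate those of *MRPL4*, *MRPS25*, *MRPS15* and *MRPS31* (0.051 to 0.091).

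**Figure D3:**
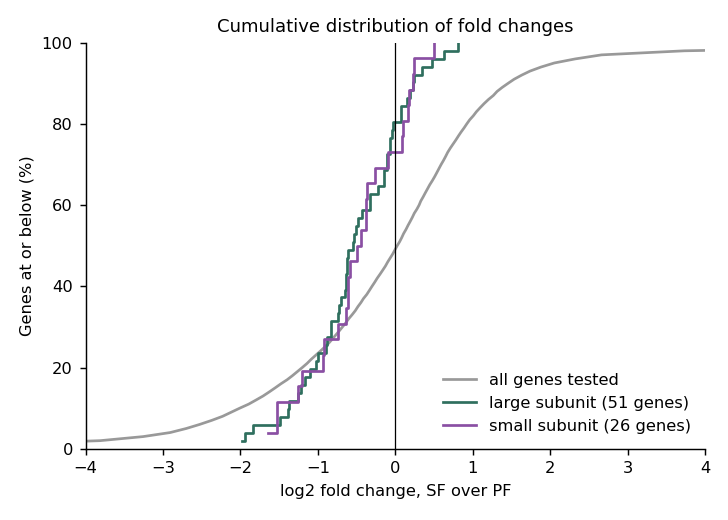
Cumulative share of genes (%) at or below each log2 fold change of SF over PF, for all genes tested, the 51 large subunit genes and the 26 small subunit genes. The curves of both subunits run close together, cross 0 at 80.4% and 73.1%, and lack the wide tails of all genes, which include genes of low level.

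In the large subunit, *MRPS30* had the smallest adjusted p of all members. It encodes mL65, a protein without a bacterial counterpart. It stood at 168, 148 and 103 TPM in PF1 to PF3, 60.5 TPM in PF4, and 40.7, 37.9 and 21.7 TPM in SF, so that all SF libraries lay below all PF libraries (log2 fold of -1.95 ± 0.33, adjusted p by DESeq2 = 4.4e-07). *MRPL37*, also particular to mitochondria, had 652, 600 and 263 TPM in PF1 to PF3 and 162, 145 and 77.6 TPM in SF, with PF4 at 141 TPM inside the SF range (log2 fold of -1.84 ± 0.41, adjusted p by DESeq2 = 2.6e-04). *MRPL32*, whose protein is cleaved by the m-AAA protease before it joins the ribosome, had the largest fall. Its values were 383, 364 and 201 TPM in PF1 to PF3, 76.5 TPM in PF4 and 101, 94.4 and 27.7 TPM in SF (log2 fold of -1.97 ± 0.51, adjusted p by DESeq2 = 0.0018). The falls of these 3 genes held with any 1 of the 6 libraries left out. With PF4 kept *MRPL37* and *MRPL32* no longer passed (DESeq2 adjusted p = 0.055 and 0.084).

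Other falls in the large subunit were smaller or less steady. *MRPL20*, a counterpart of a bacterial protein that binds the large ribosomal RNA, was the most abundant member in PF1 to PF3 with 983, 803 and 571 TPM, and had 390, 298 and 141 TPM in SF (log2 fold of -1.39 ± 0.41, adjusted p by DESeq2 = 0.008). *MRPL48*, of the central protuberance, fell from 151 ± 60.4 TPM to 48.1 ± 20.2 TPM (-1.49 ± 0.45, adjusted p = 0.0087). *MRPL18*, also of the central protuberance, fell from 287 ± 80.8 TPM to 102 ± 48.7 TPM (-1.37 ± 0.43, adjusted p = 0.013). *MRPL21* and *MRPL36*, both with bacterial counterparts, fell by 1.10 ± 0.36 and 1.26 ± 0.43 on the log2 scale (adjusted p = 0.015 and 0.025). The last calls, named after their values were seen, were *MRPL4* (-0.99 ± 0.35, adjusted p = 0.03) and *MRPL47* (-1.21 ± 0.46, adjusted p = 0.047), which both have bacterial counterparts at the exit tunnel. In these 7 genes PF1 to PF3 lay above the SF libraries without overlap, yet each call ended without at least 1 library. Without PF1, 6 of them were lost, all but *MRPL36* (DESeq2 adjusted p = 0.061 to 0.2), and without PF2 also 6, all but *MRPL20* (0.065 to 0.17). Without SF2 all 7 were lost (0.054 to 0.15), and without SF3 *MRPL36* and *MRPL47* (0.071 and 0.12). With PF4 kept none of the 7 passed (0.091 to 0.25).

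In the small subunit, *MRPS16* was the clearest fall. The gene encodes bS16m, which has a bacterial counterpart, and its inherited loss is known to impair mitochondrial translation. It had 336, 414 and 228 TPM in PF1 to PF3, 151 TPM in PF4 and 113, 99.6 and 71.8 TPM in SF, again with no overlap between any PF and any SF library (log2 fold of -1.64 ± 0.32, adjusted p by DESeq2 = 1.4e-05). The call held with any 1 library left out and with PF4 kept (adjusted p = 0.0061). *MRPS14*, the most abundant small subunit gene, fell from 474 ± 185 TPM to 179 ± 87.0 TPM (-1.26 ± 0.48, adjusted p = 0.044), and the lowest of its PF1 to PF3, at 260.8 TPM, was just above SF1 at 258.9 TPM. Also called lower, and named after their values were seen, were *MRPS25* (-1.53 ± 0.57, adjusted p = 0.043), *MRPS15* (-0.94 ± 0.36, adjusted p = 0.048) and *MRPS31* (-0.92 ± 0.35, adjusted p = 0.046). The calls of *MRPS14*, *MRPS25*, *MRPS15* and *MRPS31* ended without PF1 (adjusted p = 0.079 to 0.17), PF2 (0.078 to 0.2) or SF2 (0.064 to 0.16). Those of *MRPS14*, *MRPS15* and *MRPS31* also ended without SF3 (0.068 to 0.11), those of *MRPS15* and *MRPS31* without PF3 (0.1 and 0.082), and that of *MRPS31* without SF1 (0.066). A filter of 10 counts in 3 libraries ended the calls of *MRPS15* and *MRPS31* (0.062 and 0.053), and a transcript length offset that of *MRPS15* (0.057), so that *MRPS15* was kept in 1 and *MRPS31* in 2 of 17 alternatives. With PF4 kept none of the 4 passed (0.064 to 0.38).

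The 3 genes of the MRPS18 family, related in sequence, differed in their values. *MRPS18B* and *MRPS18C* belong to the small subunit. *MRPS18B* had 211, 205 and 73.4 TPM in PF1 to PF3 and 73.3, 52.4 and 28.0 TPM in SF, so that PF3 and SF1 nearly met (-1.52 ± 0.50, adjusted p = 0.017). *MRPS18C* had 517, 514 and 248 TPM in PF1 to PF3 and 231, 161 and 81.2 TPM in SF (-1.21 ± 0.44, adjusted p = 0.036). *MRPS18A*, of the large subunit, had 67.9, 102 and 53.8 TPM in PF1 to PF3 and 78.0, 54.3 and 55.7 TPM in SF, with overlapping stages (-0.11 ± 0.38, adjusted p = 0.88, 95% interval of the log2 fold change -0.85 to 0.63). The calls of *MRPS18B* and *MRPS18C* ended without PF1 (adjusted p = 0.11 and 0.15), PF2 (0.12 and 0.16), SF2 (0.094 and 0.15) or SF3 (0.064 and 0.093), and with PF4 kept (0.12 and 0.22). Whether the fold of *MRPS18A* differed from those of its relatives was not tested.

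**Figure D4:**
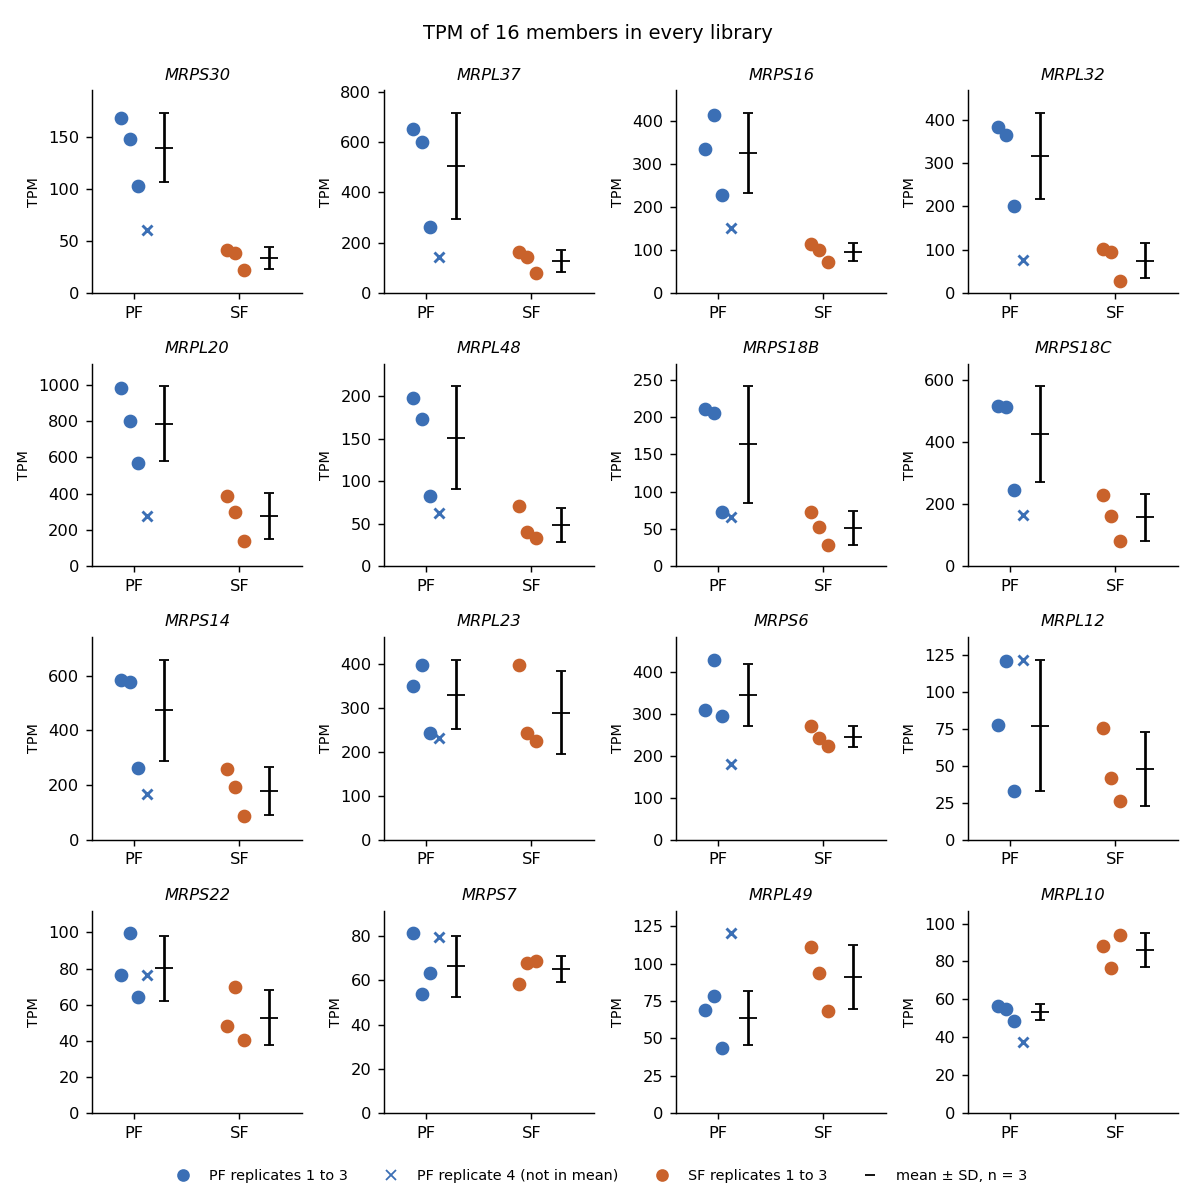
TPM of 16 members in each library, with circles for PF1 to PF3 and the SF libraries, crosses for PF4, and bars for the mean ± SD (n = 3). In *MRPS30* and *MRPS16* all PF libraries lie above all SF libraries, in *MRPS7* and *MRPL23* the stages overlap, and in *MRPL10* all SF libraries lie above all PF libraries.

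The member called higher in SF was *MRPL10*, which anchors the stalk of the large subunit, the flexible arm that recruits translation factors. Its values were 56.3, 55.1 and 48.7 TPM in PF1 to PF3, 37.3 TPM in PF4 and 88.1, 76.4 and 93.9 TPM in SF (log2 fold of 0.81 ± 0.28, adjusted p by DESeq2 = 0.027). All SF libraries lay above all PF libraries, PF4 included, and the call held with that library kept (adjusted p = 0.032). It ended without PF1 or PF2 or SF1 or SF3 (adjusted p = 0.14, 0.12, 0.077 and 0.066), with scaling by total counts (0.19) and with library number as covariate (0.052). The other stalk genes did not pass. *MRPL12*, which binds to *MRPL10* in several copies and is also known to bind the mitochondrial RNA polymerase, varied widely, with 77.7, 121 and 32.8 TPM in PF1 to PF3 and 75.4, 41.8 and 26.4 TPM in SF (-0.54 ± 0.58, adjusted p = 0.56). *MRPL11*, at the base of the stalk, had 194 ± 75.6 TPM in PF and 198 ± 50.9 TPM in SF (0.15 ± 0.39, adjusted p = 0.84). *MRPL49*, particular to mitochondria, had 69.0, 78.3 and 43.4 TPM in PF1 to PF3, 120.5 TPM in PF4 and 111, 93.6 and 68.4 TPM in SF, and did not pass (0.63 ± 0.32, adjusted p = 0.15), though it did with library number as covariate.

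Further genes with known roles at the exit tunnel, in decoding and in rescue are given here, none of which passed the test. *MRPL45*, which tethers the ribosome to the inner membrane, had 55.8 ± 12.7 TPM in PF and 60.1 ± 14.5 TPM at the SF stage (log2 fold of 0.23 ± 0.32, adjusted p by DESeq2 = 0.67). *MRPL23*, at the tunnel exit, was among the most abundant members at both stages, with 349.8, 397 and 242 TPM in PF1 to PF3 and 397, 243 and 224 TPM in SF (-0.03 ± 0.36, adjusted p = 0.96). *MRPL44*, related to RNase III enzymes, had 57.3 ± 26.5 TPM in PF and 31.5 ± 14.7 TPM in SF (-0.73 ± 0.50, adjusted p = 0.32). *MRPL58*, a hydrolase that frees stalled peptides from their transfer RNA, had 221 ± 89.2 TPM in PF and 99.5 ± 38.3 TPM in SF, with no overlap between PF1 to PF3 and SF (-1.02 ± 0.43, adjusted p = 0.078). Among the libraries left out in turn, *MRPL58* passed without PF3 or without SF1 (adjusted p = 0.035 and 0.039). On the small subunit, *MRPS12*, of the decoding centre, had 24.7 ± 10.1 TPM in PF and 31.8 ± 17.8 TPM in SF (0.50 ± 0.57, adjusted p = 0.6). *MRPS24*, near the entry of the messenger RNA, had 82.0 ± 17.7 TPM in PF and 87.9 ± 24.2 TPM in SF (0.23 ± 0.33, adjusted p = 0.69). *MRPS6* had 309, 430 and 295 TPM in PF1 to PF3, 181 TPM in PF4 and 272, 243 and 223 TPM in SF (-0.37 ± 0.28, adjusted p = 0.38).

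Inherited defects of *MRPS22*, *MRPS7* and *MRPL50* are known in women with ovarian insufficiency. In the follicles *MRPS22* had 76.4, 99.7 and 64.4 TPM in PF1 to PF3, 76.5 TPM in PF4 and 48.3, 70.0 and 40.3 TPM in SF, with 1 SF library inside the PF range (log2 fold of -0.50 ± 0.32, adjusted p by DESeq2 = 0.29, 95% interval -1.13 to 0.14). *MRPS7* had 81.4, 54.0 and 63.5 TPM in PF1 to PF3, 79.6 TPM in PF4 and 58.4, 68.0 and 68.9 TPM in SF (0.09 ± 0.31, adjusted p = 0.88, 95% interval -0.52 to 0.71). *MRPL50* was a low member, with 34.5, 32.5 and 21.8 TPM in PF1 to PF3, 55.7 TPM in PF4 and 35.7, 22.6 and 19 TPM in SF (-0.06 ± 0.43, adjusted p = 0.94, 95% interval -0.90 to 0.77). The stages overlapped in all 3 genes, and the intervals leave room for a change of either sign. *MRPS36*, the member outside the ribosome, had 172 ± 33.2 TPM in PF and 114 ± 37.8 TPM in SF (-0.48 ± 0.41, adjusted p = 0.43).

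Across the members the libraries stood in much the same order as in the summed levels. PF1 held the highest TPM of 34 members and PF2 of 24. PF4 was the highest in 11 members, SF1 in 8 and SF3 in 1, and PF3 and SF2 in none. The lowest value was in SF3 for 53 members, in PF3 for 11 and in PF4 for 9. SF3 also had the lowest sum of the oocyte markers and PF1 and PF2 the highest. PF4, at 439 TPM, had a lower sum of these markers than SF2 at 1278 TPM and SF1 at 1723 TPM. The sum over the members was 7792 TPM in PF4, 8923 TPM in SF1 and 6947 TPM in SF2. The relation of the members to the markers was not tested. Within library numbers below 40, where SF1 was the only SF library, 58 of 78 members were lower in SF on log2(TPM + 1). The median difference was -0.51. Within those above 40, where PF3 was the only PF library with PF4 left out, 55 were lower, with a median of -0.33.

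**Figure D5:**
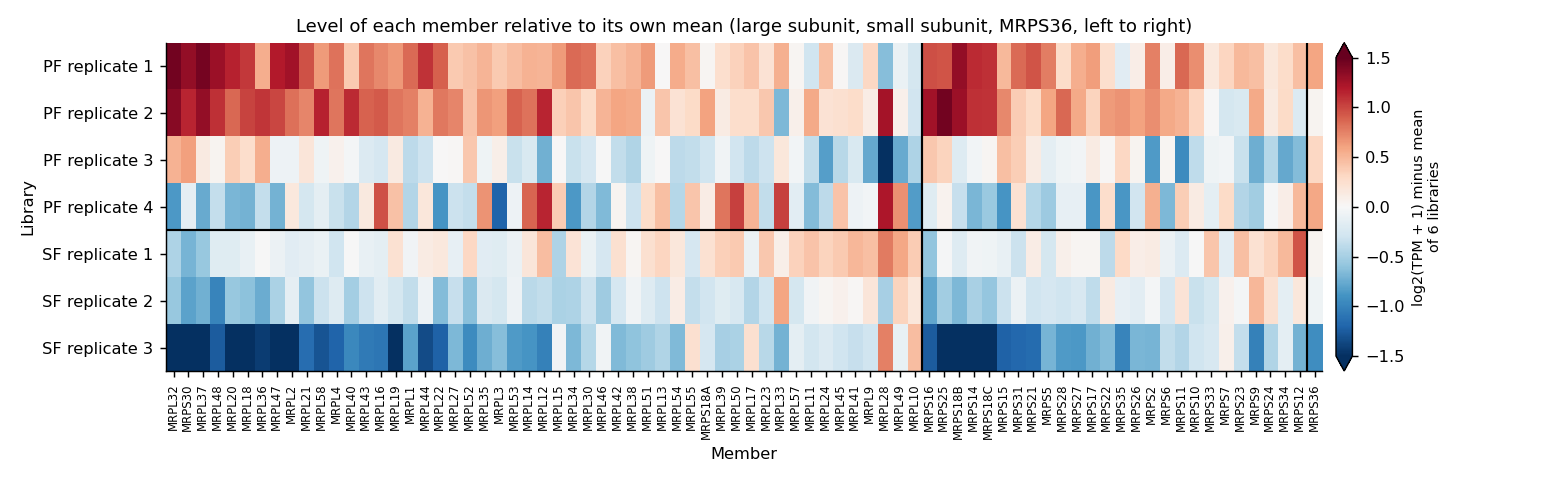
log2(TPM + 1) of each member in each library minus the mean of the 6 libraries compared, with large subunit genes, small subunit genes and *MRPS36* from left to right, each ordered by fold change. PF1 and PF2 are above the mean in most members, SF3 is below it, and PF4 varies from member to member.

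Members were also counted by whether bacterial ribosomes hold a counterpart. Against 11.0% of all genes tested called lower and 8.14% called higher, these counts were as follows. Of 46 genes with a bacterial counterpart 11 fell (23.9%) and 1 rose (median log2 fold change -0.60), and of 31 genes particular to mitochondria 6 fell (19.4%) and none rose (median -0.44). In the large subunit 7 of 30 genes with a counterpart (23.3%) and 3 of 21 without one (14.3%) fell, and in the small subunit 4 of 16 (25.0%) and 3 of 10 (30.0%). No difference between these classes was tested.

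Mitochondrial ribosomal proteins that carry other symbols were read from the same fit. Of the 5, 3 fell and none rose, where 11.0% of all genes tested were called lower and 8.14% higher. *GADD45GIP1* (mL64 of the large subunit) had 392, 463 and 223 TPM in PF1 to PF3 and 162, 109 and 84.3 TPM in SF (log2 fold of -1.46 ± 0.38, adjusted p by DESeq2 = 0.0023). *PTCD3*, a pentatricopeptide repeat protein of the small subunit, had 67.8, 43.7 and 39.7 TPM in PF1 to PF3, 29.4 TPM in PF4 and 23.7, 16.1 and 9.53 TPM in SF (-1.50 ± 0.42, adjusted p = 0.0042). *DAP3*, a GTP-binding protein of the small subunit, had 53.4, 36.5 and 37.0 TPM in PF1 to PF3, 41.7 TPM in PF4 and 24.1, 25.2 and 17.7 TPM in SF (-0.67 ± 0.26, adjusted p = 0.047). In *PTCD3* and *DAP3* all 4 PF libraries lay above the SF libraries. *CHCHD1* (0.51 ± 0.42) and *AURKAIP1* (-0.26 ± 0.38), both of the small subunit, did not pass (adjusted p = 0.43 and 0.68). *DAP3* lost its call whichever of the 6 libraries was left out (adjusted p = 0.062 to 0.18), with either other scaling (0.097 and 0.085), with the filter of 10 counts (0.095) and with the covariate (0.11), and passed with PF4 kept (0.023), as did *PTCD3* (0.023), while that of *GADD45GIP1* ended with PF4 kept (0.14).

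Genes that build the mitochondrial ribosome were read next. Of 30 assembly genes listed, 26 were matched and tested, and 5 fell (19.2%, against 11.0% of all genes tested) and 1 rose (against 8.14%), with a median log2 fold change of -0.39. *NDUFAB1*, the acyl carrier protein that serves both ribosome assembly and complex I, had 2329, 2069 and 1391 TPM in PF1 to PF3, 483 TPM in PF4 and 732, 509 and 273 TPM in SF (-1.81 ± 0.40, adjusted p by DESeq2 = 2.4e-04). *OXA1L*, the insertase that receives new proteins at the inner membrane, fell from 158 ± 75.8 TPM to 48.2 ± 16.1 TPM (-1.58 ± 0.42, adjusted p = 0.0025). *TFB1M*, which methylates the small ribosomal RNA, fell from 86.5 ± 35.0 TPM to 31.3 ± 10.7 TPM (-1.38 ± 0.38, adjusted p = 0.0039). These 3 calls held with any 1 of the 6 libraries left out and ended with PF4 kept (adjusted p = 0.078, 0.098 and 0.28). The gene that rose, *MRM3*, a methyltransferase of the large ribosomal RNA, was low, with 2.83 ± 1.11 TPM in PF and 8.33 ± 3.89 TPM in SF (1.69 ± 0.60, adjusted p = 0.032). It was named after its values were seen, and its call ended without PF1, PF2 or PF3 or SF2 or SF3 (adjusted p = 0.053 to 0.19), with scaling by total counts (0.076), with the covariate (0.14) and with PF4 kept (0.63).

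Of 16 mitochondrial translation factors 1 fell (6.25%, below the 11.0% of all genes tested) and none rose, with a median log2 fold change of -0.42. It was *GFM2*, which splits the ribosome after a round of translation (41.8 ± 20.3 TPM in PF and 12.4 ± 6.98 TPM in SF, -1.64 ± 0.55, adjusted p by DESeq2 = 0.022). Its call ended without PF1 or PF2 (adjusted p = 0.15 and 0.063), with library number as covariate (0.052) and with PF4 kept (0.1). *MTIF2* had no adjusted p and counts among the 16 as not called. Of 20 mitochondrial aminoacyl-tRNA synthetases and related enzymes, which load transfer RNAs with amino acids, 2 fell (10%, against 11.0% of all genes tested) and 2 rose (against 8.14%), and the median was 0.08, where that of all genes was 0.02. *LARS2*, at 0 TPM in all libraries but SF3, had no adjusted p and counts in the 20 and in the median. *IARS2*, for isoleucine, had 59.5, 41.9 and 31.4 TPM in PF1 to PF3 and 95.4, 91.5 and 65.8 TPM in SF (1.05 ± 0.29, adjusted p = 0.0035), with PF4 at 62.6 TPM. *CARS2*, for cysteine, fell from 261 ± 61.2 TPM to 98.2 ± 40.6 TPM (-1.32 ± 0.39, adjusted p = 0.0068). *VARS2*, for valine, had 4.00 ± 1.81 TPM in PF and 10.3 ± 4.64 TPM in SF (1.51 ± 0.53, adjusted p = 0.03), with PF4 at 18.9 TPM. The call of *CARS2* ended without PF2 (0.053) and that of *VARS2* with any library but SF3 left out (0.061 to 0.17). All 3 ended with PF4 kept (adjusted p = 0.14 to 0.84), and those of *IARS2* and *VARS2* with scaling by total counts (0.12 and 0.13).

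Of 17 genes of mitochondrial DNA upkeep and transcription 3 fell (17.6%, against 11.0% of all genes tested) and none rose (against 8.14%). The median log2 fold change was -0.34, and 52.9% of the list lay below 0, against 49.2% of all genes tested. *TEFM*, the elongation factor of mitochondrial transcription, had 105, 110.2 and 50.1 TPM in PF1 to PF3, 27.3 TPM in PF4 and 23.8, 19.4 and 7.68 TPM in SF, with all PF libraries above all SF libraries (-2.26 ± 0.50, adjusted p by DESeq2 = 1.9e-04). It passed with any 1 library left out and with PF4 kept (0.016). *POLG2*, the accessory subunit of the mitochondrial DNA polymerase, fell from 35.1 ± 8.42 TPM to 11.9 ± 4.40 TPM (-1.41 ± 0.36, adjusted p = 0.0018), and *MGME1*, an exonuclease of mitochondrial DNA, from 38.7 ± 17.5 TPM to 11.4 ± 5.0 TPM (-1.62 ± 0.49, adjusted p = 0.0089). With PF4 kept neither passed (adjusted p = 0.18 for each), and the call of *MGME1* also ended without PF1 or PF2 or SF2 (0.08, 0.059 and 0.075). The 13 proteins encoded in mitochondrial DNA itself were not analysed here.

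The members' values rested on 138 transcripts, 44 members having 1 transcript each and the others up to 7. In *MRPL10* the main transcript held 91.0% of the TPM of the gene in PF and 98.5% in SF, and in *MRPS18C* 98.8% and 94.0%. In *MRPL49* it held 81.1% in PF and 58.0% in SF, with 30.4% to 100% in the 6 libraries. In *MRPL30*, named after its values were seen, it held 45.7% and 73.2%, with 30.2% to 93.1% in the 6 libraries. Such shares come from the splitting of reads between overlapping transcripts by the authors' software, and no test was made on them.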

How the data were processed

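RNA of 7 libraries of bovine PF and SF was measured by RNA sequencing after SMART-Seq v4 amplification, which does not mark strand and carries no molecular identifiers. According to the study, reads were trimmed and quantified per RefSeq transcript of the ARS-UCD1.3 build, and the submitters' notes name Trim Galore and Salmon. The authors deposited an estimated count and a TPM for each transcript, with the effective length. Of 76123 transcripts, 50205 were matched by accession without version to 23704 genes of an ARS-UCD2.0 table used for names alone. The unmatched ones, with 9.71% to 10.7% of the counts, were left out, so a gene's count can be incomplete. For each gene the deposited estimated counts of its transcripts were added and rounded to whole numbers, and the TPM added. Salmon can share reads between a gene and its processed copies. Libraries of a group differed by a chi-square of 97.8 or more per degree of freedom, so none was a duplicate.

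SF was compared with PF, replicate 4 left out, with DESeq2 1.42.0 in R 4.3.3, median-of-ratios size factors and Benjamini-Hochberg adjusted p below 0.05 over all genes. Alternatives were edgeR 4.0.16 (quasi-likelihood), limma 3.58.1 on the log2 scale with a pseudocount of 1 or 0.1 TPM, with genes at 1 TPM or more in 3 libraries or with no filter, TMM or total count scaling, a transcript length offset, a filter of 10 counts in 3 libraries, all 7 libraries, a replicate block, the library number (below or above 40) as a covariate, and each library left out. The fits were run on simulated counts with known fold changes as a check of the code, which does not show how they perform on these data. The labels do not pair the libraries by replicate number. By values, same-numbered libraries correlated for replicates 1 and 3 (0.26 and 0.40) but not for replicate 2 (-0.04), so the numbers were not taken as pairs.

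Members, lists and tests were chosen with earlier results of these data known. Named members were the 8 with the smallest p in each direction among calls, the 4 most abundant of each subunit, the 3 highest and 3 lowest folds, any under 1 TPM (none was) and 16 with set roles. Of other lists, the 3 called genes with the smallest p were named, and all 5 ribosomal proteins with other symbols. Lists of oocyte, granulosa, stromal, theca, endothelial, immune and smooth muscle markers were summed. Summaries used Python 3.11.15 with pandas 2.3.3.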

Additional observations from a re-analysis of the deposited data

Results flagged for a closer look

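Of 58 values examined over the 4 PF libraries, which were the named genes, the summed levels of the subunits and the summed markers, 1 had a library farther from the rest than Dixon's 95% critical value for 4 samples allows, where chance flags about 1 value in 20. It was the summed TPM of the stromal fibroblast markers, at 6193 TPM in PF replicate 4 and 427 to 621 TPM in the others (ratio of gap to range 0.966). None of the named members or sums over the members passed that limit.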

How the results depend on the processing

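The count of 2876 genes called became 0 with edgeR, 858 with all 7 libraries, 792, 2 and 0 with limma on log2(TPM + 1), on log2(TPM + 0.1) and on log2(TPM + 1) without a filter, and 1887 to 3947 with a library left out. Members called lower, 17, became 0 with edgeR, 10 with TMM factors, 10 with total count scaling, 2 with all 7 libraries, 4, 0 and 0 with the 3 limma fits and 4 to 23 with a library left out. The member called higher was lost (0) with edgeR, total count scaling and the 3 limma fits, and the count was 0 to 1 with a library left out. With library number as covariate the count stayed at 1, but *MRPL49* was called in place of *MRPL10*. The log2 ratio of large to small summed TPM, SF minus PF, moved from -0.02 to -0.16 with counts over size factors. With the replicate block 4077 genes were called, 19 members were called lower (14.6% of all genes tested) and 1 higher (13.4%). Of the 20 members called with the block, 17 were among the 18 calls of the main fit. The block ended the calls of *MRPS15*, *MRM3* and *DAP3* (DESeq2 adjusted p = 0.057, 0.054 and 0.13). Among the calls that it added was that of *MRPL58* (0.014). Same-numbered libraries correlated in their deviations by 0.26, -0.04 and 0.40, and replicate 2 correlated best with another number, so the numbers were not taken as pairs. Medians and summed levels of both subunits kept their sign and moved by less than the spread between libraries under each alternative run. No named gene with a call changed sign, and 25 values of named members without a call did. The cause of these changes was not tested. Every member had counts enough in each library for depth not to limit detection.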
